A study of Mus musculus with 18 samples.

Results

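The 10 Bcl2 family genes Bax, Bak1, Bcl2, Bcl2l1, Mcl1, Bbc3, Pmaip1, Bcl2l11, Bid and Bmf were chosen by symbol from the 30172 genes of the ovarian RNA sequencing data, and all 10 were found. The ovaries came from wild-type C57BL/6J F1 females at postnatal day 3, 7 or 21 (Pd3, Pd7, Pd21). In the F1-HHcy groups the mothers ate a diet with 3% methionine, which raises homocysteine in the blood (hyperhomocysteinemia, HHcy), and in the F1-Control groups they ate normal chow. The diet began 4 weeks before mating according to the labels, which is shorter than the time given in the study's methods, and lasted through gestation and lactation. Each of the 6 groups of diet and day had 3 libraries, 18 in all. The study's methods name no treatment of the pups other than the mothers' diet, and do not say whether older pups ate that diet. Batch 1 of the labels holds Pd3 with Pd7 and batch 2 holds Pd21, so each comparison of diets lay within a batch, while age and batch cannot be told apart where Pd21 is set beside another day. Nothing in the labels says whether a library held 1 pup or several, or whether pups came from separate litters. The p-values therefore measure the spread between these libraries.

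Bcl2 family proteins decide whether the outer membrane of mitochondria stays closed during cell stress. The effectors Bax and Bak1 open it and release cytochrome c, the pro-survival proteins Bcl2, Bcl2l1 (Bcl-xL) and Mcl1 hold the effectors in check, and the BH3-only proteins Bbc3 (Puma), Pmaip1 (Noxa), Bcl2l11 (Bim), Bid and Bmf bind the pro-survival proteins or the effectors and set the process off. In the ovary this family acts in the loss of germ cells around birth, in the death of oocytes with damaged DNA, where Bbc3 and Pmaip1 act below p53 and p63, and in the death of granulosa cells during follicle atresia.

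The sequences before the transcription starts of Bax, Bbc3 and Bcl2 are shown because Bax and Bbc3 were lower in F1-HHcy libraries at Pd3 and Bcl2 was the member with higher values in all F1-HHcy libraries at Pd7. They are RefSeq sequences of build GRCm38.p6, 250 bases up to the start, written 5′ to 3′ on the strand of the gene. Capitals mark matches to the 10-base p53 consensus, a pair of which makes a full binding site, and to the GC box GGGCGG, which binds Sp1, on either strand, with overlapping matches joined.
Bax, chr7:45466899-45467148, minus strand: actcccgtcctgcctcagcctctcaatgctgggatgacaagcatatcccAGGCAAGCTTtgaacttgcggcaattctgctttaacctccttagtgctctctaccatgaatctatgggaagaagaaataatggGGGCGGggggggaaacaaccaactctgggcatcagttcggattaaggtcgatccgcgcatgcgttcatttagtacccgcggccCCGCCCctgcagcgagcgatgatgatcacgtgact
Bbc3, chr7:16309333-16309582, plus strand: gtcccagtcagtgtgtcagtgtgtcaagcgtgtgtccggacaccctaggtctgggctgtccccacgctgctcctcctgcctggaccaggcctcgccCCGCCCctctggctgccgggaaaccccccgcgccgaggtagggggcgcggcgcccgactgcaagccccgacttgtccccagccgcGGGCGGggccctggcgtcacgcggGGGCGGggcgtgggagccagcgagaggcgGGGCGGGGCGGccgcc
Bcl2, chr1:106714291-106714540, minus strand: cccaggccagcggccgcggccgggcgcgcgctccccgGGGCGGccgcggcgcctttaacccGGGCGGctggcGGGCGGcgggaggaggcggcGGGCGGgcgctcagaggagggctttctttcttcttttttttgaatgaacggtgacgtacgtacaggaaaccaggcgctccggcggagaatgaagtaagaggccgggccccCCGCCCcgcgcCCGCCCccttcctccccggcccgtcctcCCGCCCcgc
The Bax window held 1 match to the p53 consensus and 2 GC boxes. The Bbc3 window, in an intron of a longer annotated Bbc3 transcript, held 5 GC boxes, the Bcl2 window held 7, and neither held a p53 match. Of 32851 windows of this kind over all genes, 7.13% held the p53 consensus, 32.7% held a GC box and 3.17% held the FOXO core GTAAACA on either strand. Of 16 windows of 9 members, 2 held it (Bax and Bmf), 9 held a GC box and 2 held the FOXO core (Bbc3 at another of its starts, and Bcl2l11). A match describes these letters, and no factor was measured here.

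Between 33630547 and 39399215 fragments per library fell on genes. Values are FPKM, fragments scaled to gene length and to all fragments on genes, so levels of different genes can be set side by side. The libraries held oocyte and granulosa markers throughout, with summed levels of 1131 to 3225 FPKM for 16 germ cell and oocyte genes and 340 to 1982 FPKM for 14 granulosa genes. Of the libraries, 2 stood apart from their day by immediate early genes. In F1-HHcy Pd3 replicate 3 the immediate early genes Fos and Jun, chosen after their values were seen, were at 818 and 467 FPKM, where the other 5 Pd3 libraries had at most 59.7 and 99.1 FPKM. In F1-HHcy Pd7 replicate 3 they were at 93.5 and 63.6 FPKM, where the other 5 Pd7 libraries had at most 5.71 and 27.4 FPKM. Values without these libraries are given beside the results they move. Because whole ovaries were sequenced, fewer cells of a type and less RNA per cell cannot be told apart in any of the values that follow.

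The members covered levels from below 1 to about 60 FPKM. Bax was the most abundant, with a lowest, median and highest value of 31.4, 44.4 and 61.0 FPKM over the 18 libraries. It was followed by Bak1 with 13.4, 18.8 and 33.1 FPKM and by Mcl1 with 11.6, 17.6 and 30.4 FPKM, 2 neighbours whose ranges overlapped. Bcl2l1 had a median of 9.08 FPKM, Bid 6.99 FPKM, Bcl2 4.73 FPKM, Bmf 4.66 FPKM and Bcl2l11 2.45 FPKM, again with overlapping ranges between neighbours from Bcl2l1 to Bcl2l11. Bbc3 and Pmaip1 were the lowest, with medians of 0.888 and 0.705 FPKM. They were also the most variable, with a highest value 12.5 times the lowest for Bbc3 and 16.9 times for Pmaip1, whereas Bcl2l11 and Bid varied 1.64 and 1.65 times. The low level of Bbc3 rested on 33 to 385 fragments per library and that of Pmaip1 on 13 to 234.

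**Figure D1:**
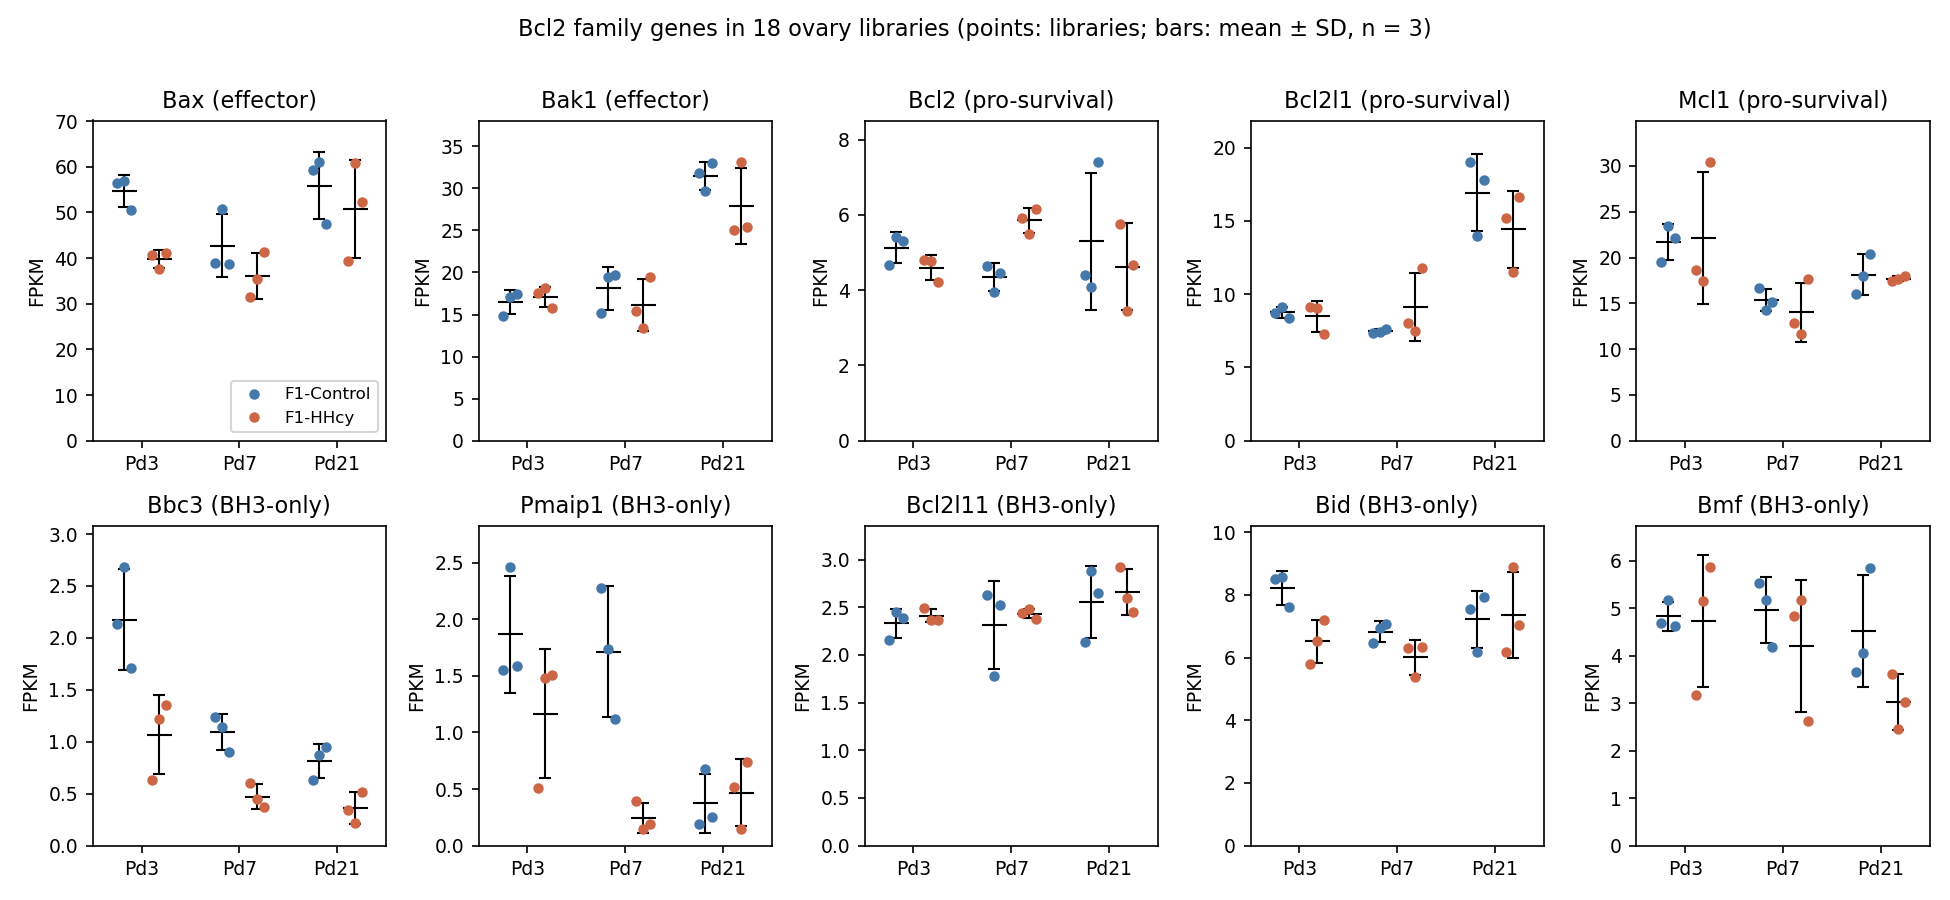
FPKM of each of the 10 genes (y axis, linear from 0) by postnatal day (x axis) in F1-Control (blue) and F1-HHcy (orange) ovaries. Points are libraries and bars are the mean ± SD of 3. The 3 F1-HHcy points of Bbc3 lie below the 3 F1-Control points on each day, and those of Pmaip1 lie below at Pd3 and Pd7.

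The first question was whether the mother's diet changed these genes in the ovary on each day. Diets were compared with limma on log2(FPKM + 1) over all genes that reached 1 FPKM in 3 or more of the 6 libraries, and a gene was called with an adjusted p under 0.05. Fold changes on this scale understate the change of genes near or below 1 FPKM, so for Bbc3 and Pmaip1 a limma-voom fit on the recovered fragments, chosen after seeing the data, is given as well. At Pd3, 0 of 10 members were called, against 3.07% of the 13277 genes tested. Also in the limma-voom fit 0 members were called, against 1.66% of 18044 genes. At an unadjusted p under 0.05, 3 members passed (Bax, Bbc3 and Bid), against 22.4% of all genes tested. In 4 of 10 members (Bax, Bbc3, Bid and Pmaip1) all 3 F1-HHcy libraries lay below all 3 F1-Control libraries, against 16.1% of genes tested, and in 0 they lay above, against 11.8%. At Pd7, 1 of 9 members tested was called, Pmaip1, against 11.9% of 13299 genes. Pmaip1 had entered this fit only through its high F1-Control libraries, so the filter partly fixed this count, and without the filter 0 members were called. Of the 9, 2 passed the unadjusted threshold (Bcl2 and Pmaip1), against 31.5%. All F1-HHcy libraries lay below the F1-Control libraries for Bid and Pmaip1, against 19.5% of genes, and above them for Bcl2, again against 19.5%. At Pd21, 0 of 8 members tested were called by limma, against 2.23% of 13350 genes, and 0 of 10 by limma-voom, against 2.60%. Of the 8, 0 passed unadjusted, against 6.85%. Only Bmf of these 8 had all F1-HHcy libraries below, against 8.61% of genes, and none had them above, against 1.92%. The median log2 fold change of the members at Pd3, Pd7 and Pd21 was -0.09, -0.16 and -0.15, and that of all genes tested was -0.031, -0.001 and -0.011. For groups of 3 libraries the smallest p of an exact 2-sided permutation test is 0.1, so no such test was run on a gene alone.

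Among the effectors, Bax had lower values in all F1-HHcy libraries at Pd3, without passing the adjusted test. Its F1-Control libraries at Pd3 had 56.5, 57.0 and 50.6 FPKM and its F1-HHcy libraries had 40.6, 37.6 and 41.2 FPKM. The groups did not overlap, with means of 54.7 ± 3.53 and 39.8 ± 1.93 FPKM (SD, n = 3). The log2 fold change was -0.45 ± 0.10 (SE), with an adjusted p of 0.0562 from limma. Without F1-HHcy Pd3 replicate 3, the library with high Fos and Jun, it was -0.47 with an adjusted p of 0.0171, while in the other 5 fits without 1 library the adjusted p ran from 0.0915 to 0.250. At Pd7 the Bax libraries overlapped, at 38.9, 50.7 and 38.6 FPKM in F1-Control and 31.4, 35.5 and 41.4 FPKM in F1-HHcy. The log2 fold change on that day was -0.23 ± 0.16. It was -0.34 without F1-HHcy Pd7 replicate 3 (adjusted p = 0.218 in limma) and -0.11 without F1-Control Pd7 replicate 2, the library at 50.7 FPKM (adjusted p = 0.662). At Pd21 the Bax libraries overlapped as well, at 59.3, 61.0 and 47.4 FPKM against 39.4, 60.8 and 52.2 FPKM, with -0.15 ± 0.19. Annotated exons of Bax overlap those of Gm45808 on the same strand, so fragments there cannot be assigned to either gene with certainty.

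Bak1, the other effector, did not separate the diets on any day. It had 14.8, 17.1 and 17.4 FPKM in F1-Control and 17.5, 18.1 and 15.8 FPKM in F1-HHcy at Pd3, with a log2 fold change of 0.06 ± 0.11. At Pd7 the change was -0.17 ± 0.17, or -0.31 without F1-HHcy Pd7 replicate 3 (adjusted p = 0.239 in limma), and at Pd21 -0.18 ± 0.15. Over the Pd7 fits without 1 library the change ran from -0.31 to -0.06. Bak1 made up 23.1% ± 2.40 of the summed effector FPKM in F1-Control and 30.1% ± 2.40 in F1-HHcy at Pd3 (SD, n = 3), since Bax was lower and Bak1 was not.

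Of the pro-survival genes, Bcl2 had its F1-HHcy libraries above its F1-Control libraries at Pd7. The values were 4.64, 3.94 and 4.46 FPKM in F1-Control and 5.91, 5.50 and 6.16 FPKM in F1-HHcy. The groups did not overlap, and the log2 fold change was 0.36 ± 0.14, with an unadjusted p of 0.0303 and an adjusted p of 0.121 in limma. At Pd3 Bcl2 had 4.66, 5.41 and 5.32 FPKM in F1-Control and 4.80, 4.78 and 4.21 FPKM in F1-HHcy, groups that overlapped, with a change of -0.13 ± 0.12. At Pd21 the groups overlapped again, from 4.09 to 7.40 FPKM in F1-Control and from 3.44 to 5.76 FPKM in F1-HHcy.

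The difference of the diet effect between Pd7 and Pd3 was 0.49 ± 0.17 for Bcl2 on the log2 scale, with an unadjusted p of 0.0117 and an adjusted p of 0.184 in limma. In this test of 13998 genes 0 of 10 members were called by limma, against 0.514% of genes, and 0 by limma-voom, against 0.274%. Unadjusted, 1 passed in limma, Bcl2, against 16.8%.

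Bcl2l1 had 8.71, 9.14 and 8.40 FPKM in F1-Control at Pd3 and 9.15, 9.02 and 7.26 FPKM in F1-HHcy, with a log2 fold change of -0.05 ± 0.12. At Pd7 its F1-Control libraries lay close together, at 7.32, 7.40 and 7.65 FPKM, and its F1-HHcy libraries spread from 7.48 to 11.8 FPKM, with a change of 0.23 ± 0.18. The library at 11.8 FPKM was F1-HHcy replicate 3, and without it the change was 0.05. At Pd21 the change was -0.22 ± 0.18. The groups of Bcl2l1 overlapped on each day.

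Mcl1, a pro-survival protein with a short life in the cell, had 19.5, 23.4 and 22.1 FPKM in F1-Control at Pd3. Its F1-HHcy libraries had 18.6, 17.4 and 30.4 FPKM, and the highest of them was replicate 3, in which Fos and Jun were high. The log2 fold change was -0.01 ± 0.21 with that library and -0.25 without it, when the adjusted p was 0.150 in limma. At Pd7 replicate 3 again had the highest Mcl1 of the F1-HHcy libraries, at 17.6 FPKM beside 12.8 and 11.6 FPKM. The log2 fold change on that day was -0.14 ± 0.17 with it and -0.30 without it, when the adjusted p was 0.200. Over the Pd7 fits without 1 library the change ran from -0.30 to -0.02. At Pd21 the difference was -0.03 ± 0.14. The groups overlapped on either day.

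The BH3-only gene Bbc3 was the member with all F1-HHcy libraries below all F1-Control libraries on each of the 3 days. At Pd3 it had 2.13, 2.68 and 1.71 FPKM in F1-Control and 0.634, 1.22 and 1.35 FPKM in F1-HHcy. At Pd7 it had 1.24, 1.14 and 0.901 FPKM against 0.600, 0.445 and 0.371 FPKM, and at Pd21 0.635, 0.874 and 0.945 FPKM against 0.346, 0.214 and 0.520 FPKM. The groups did not overlap on any day, and the group means differed by about the same factor, 2.17 against 1.07 FPKM, 1.09 against 0.472 FPKM and 0.818 against 0.360 FPKM. On the single days 16.1%, 19.5% and 8.61% of genes tested lay lower without overlap, sets that left out Bbc3 at Pd7 and Pd21. The share of genes that did so on all 3 days was not counted, and Bbc3 was singled out after its values were seen.

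At Pd3 the log2 fold change of Bbc3 was -0.62 ± 0.20, with an adjusted p of 0.124 in limma, and -0.72 with an adjusted p of 0.0358 without F1-HHcy Pd3 replicate 3. In the other 5 fits without 1 library its adjusted p ran from 0.164 to 0.349. At Pd7 and Pd21 Bbc3 was below the filter of 1 FPKM in 3 libraries and was not tested in the fit reported here. In a fit without the filter it had -0.51 ± 0.11 at Pd7 (adjusted p = 0.0922) and -0.42 ± 0.12 at Pd21 (adjusted p = 0.382). On the fragments, where nothing is added to FPKM, the limma-voom log2 fold change was -1.08 ± 0.34 at Pd3 (adjusted p = 0.132), -1.23 ± 0.32 at Pd7 (adjusted p = 0.0431) and -1.25 ± 0.43 at Pd21 (adjusted p = 0.317). The difference of the diet effect of Bbc3 between Pd7 and Pd3 was -0.15 ± 0.49 in the limma-voom fit, and that between Pd21 and Pd7 was -0.02 ± 0.57, so a difference between days was not shown, with wide errors.

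Pmaip1 fell at Pd7. It had 2.28, 1.74 and 1.12 FPKM in F1-Control and 0.398, 0.146 and 0.193 FPKM in F1-HHcy, a drop of the mean from 1.71 ± 0.579 to 0.245 ± 0.134 FPKM (SD, n = 3) that rested on 109 to 216 fragments against 13 to 36. The log2 fold change was -1.11 ± 0.19 with an adjusted p of 0.00789 in limma. Pmaip1 passed the filter at Pd7 through its F1-Control libraries alone, so it entered that fit because the controls were high, and without the filter its adjusted p was 0.0650. The limma-voom fit, in which all 6 libraries held at least 13 fragments of Pmaip1, gave -2.84 ± 0.51 with an adjusted p of 0.0126. At Pd3 Pmaip1 had 1.55, 2.46 and 1.59 FPKM in F1-Control and 0.509, 1.48 and 1.51 FPKM in F1-HHcy, close but not overlapping. The log2 fold change at Pd3 was -0.43 ± 0.24 with an adjusted p of 0.335 in limma, or -0.55 and 0.140 without F1-HHcy Pd3 replicate 3. Without F1-HHcy Pd3 replicate 1, the library at 0.509 FPKM, these were -0.19 and 0.698, so the size of this difference rested largely on that library. At Pd21 it was low in either diet, at 0.194, 0.675 and 0.251 FPKM against 0.522, 0.147 and 0.736 FPKM, and the groups overlapped.

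The diet effect of Pmaip1 at Pd21 minus that at Pd7 was 1.20 ± 0.33 on the log2 scale, with an adjusted p of 0.0492 in limma over 14607 genes, at the edge of the threshold. It was the only 1 of 10 members called in this test, against 3.89% of genes, and the only 1 that passed unadjusted, against 19.4%. The call was lost in the limma-voom fit (3.11 ± 0.97, adjusted p = 0.108), with the replicate number as a block (adjusted p = 0.0693) and in 13 of 18 fits without 1 library, so a difference between these days was not firmly shown.

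Of the other BH3-only genes, Bid had 8.50, 8.58 and 7.60 FPKM in F1-Control and 5.81, 6.52 and 7.21 FPKM in F1-HHcy at Pd3. The groups did not overlap, and the log2 fold change was -0.30 ± 0.12 with an adjusted p of 0.205 in limma, or -0.36 and 0.0671 without F1-HHcy Pd3 replicate 3. At Pd7 Bid had 6.45, 6.95 and 7.07 FPKM against 6.31, 5.37 and 6.33 FPKM, with a change of -0.16 ± 0.14, and at Pd21 the change was 0.02 ± 0.18. Exons of Bid overlap those of Bcl2l13 on the other strand, and whether counting used the strand is not given in the sources used here.

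Bmf, which is tied to the cytoskeleton until it is set free, had 3.65, 4.05 and 5.85 FPKM in F1-Control and 3.62, 2.45 and 3.02 FPKM in F1-HHcy at Pd21. The groups did not overlap by a narrow margin, and the log2 fold change was -0.44 ± 0.20 with an adjusted p of 0.814 in limma. At Pd3 and Pd7 its groups overlapped, with -0.05 ± 0.19 and -0.22 ± 0.22, and without the library with high Fos and Jun of each day the changes were -0.20 and 0.02. Bcl2l11 was the steadiest member, between 1.78 and 2.92 FPKM over all libraries, with log2 fold changes of 0.03 ± 0.12, 0.06 ± 0.16 and 0.04 ± 0.17 at Pd3, Pd7 and Pd21.

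The diet effect was also averaged over the 3 days in 1 limma model of the 6 groups. This average was chosen because Bbc3 had been seen lower on each day in the same libraries, so it restates that pattern in 1 value and is no further evidence for it. The average log2 fold change was -0.52 ± 0.09 for Bbc3, -0.48 ± 0.13 for Pmaip1 and -0.28 ± 0.09 for Bax, and between -0.24 and 0.05 for the other 7 members. These 3 genes had an adjusted p under 0.05 in limma, against 16.3% of the 14607 genes tested, and the same 3 passed unadjusted, against 31.2%. Bax did so narrowly, with an adjusted p of 0.0491 and one of 0.124 under median-ratio scaling. For Pmaip1 the average stands for days with fitted changes as far apart as -1.11 and 0.09.

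**Figure D2:**
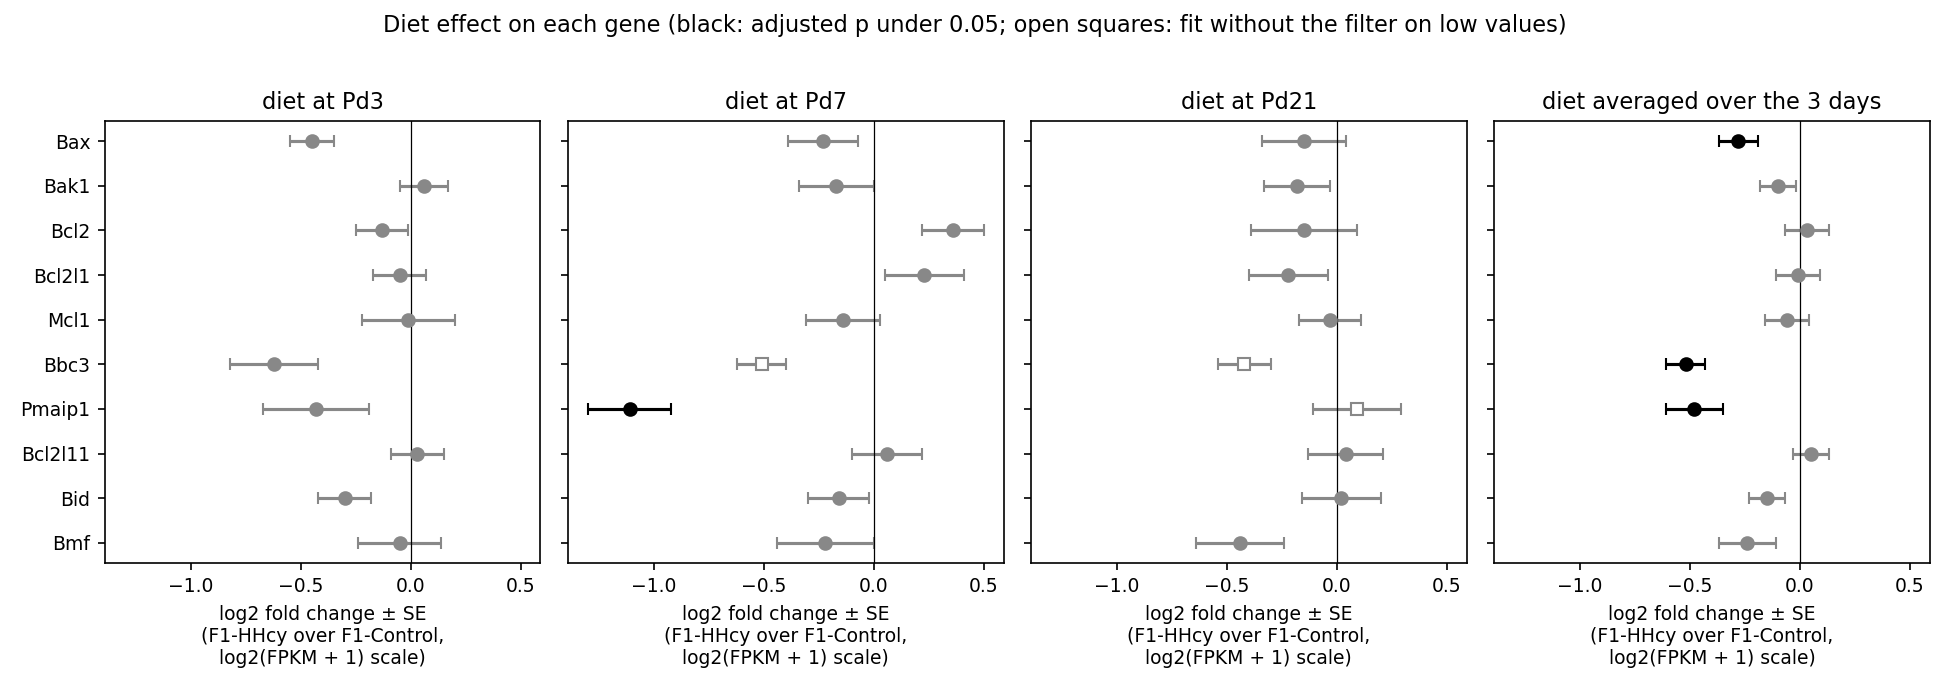
Log2 fold change of F1-HHcy over F1-Control ± SE (x axis, log2(FPKM + 1) scale) for each gene (rows) at Pd3, Pd7, Pd21 and averaged over the days. Black points had an adjusted p under 0.05 and open squares are fits without the filter on low values. Pmaip1 is black at Pd7, at -1.11, and Bax, Bbc3 and Pmaip1 are black in the average, which was chosen after the values of Bbc3 were seen.

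Genes of other cell types moved with the diet in the same libraries. At Pd3, 7 of 7 erythroid markers tested were lower in F1-HHcy by adjusted p, with a summed level of 3941 to 11288 FPKM in F1-Control and 784 to 1108 FPKM in F1-HHcy, and 5 of 9 stroma markers were higher, at 759 to 1029 against 1384 to 1676 FPKM. Of the germ cell and oocyte markers at Pd3, 2 of 16 were higher by adjusted p, Gdf9 and Zp3. Single markers of this list went both ways, with 7 higher and 6 lower at an unadjusted p under 0.05 in limma. The sums were 1131 to 1469 FPKM in F1-Control and 1762 to 2439 FPKM in F1-HHcy. Of the granulosa markers tested 2 of 11 were higher, Inha and Amh, with sums of 340 to 353 against 368 to 647 FPKM. This list also went both ways, with 5 markers higher and 2 lower (Kitl and Lgr5) at an unadjusted p under 0.05 in limma. Of 7 endothelial markers tested 0 were called, with sums of at most 69.1 FPKM in F1-Control and at least 81.9 FPKM in F1-HHcy. The sums of these 5 lists did not overlap between the diets at Pd3, where Bax and Bbc3 were lower, and in each of the 5 the lowest F1-HHcy sum was that of replicate 3. The germ cell and oocyte sum thus lay higher in F1-HHcy at Pd3 and lower at Pd7, while 8 of its 16 genes had a fitted change below 0 at Pd3. At Pd7, 9 of 16 germ cell and oocyte markers were lower and 2 were higher, with sums of 2063 to 3225 against 1266 to 1815 FPKM. On that day 8 of 8 theca and steroidogenic markers were higher, at 251 to 485 against 1194 to 1255 FPKM. Of these, Insl3 (means of 0.203 and 3.29 FPKM) passed the filter through its F1-HHcy libraries alone, so the filter partly fixed this count. At Pd7 also, 6 of 8 surface epithelium and oviduct markers tested were lower, at 518 to 973 against 221 to 420 FPKM, and 5 of 5 erythroid markers were lower, at 925 to 5791 against 287 to 502 FPKM.

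At Pd21, 5 of 10 surface epithelium and oviduct markers were lower, at 415 to 949 against 139 to 247 FPKM, and Foxj1, the master gene of motile cilia, had 20.4 to 99.1 FPKM in F1-Control and 0.248 to 0.441 FPKM in F1-HHcy. Foxj1, Dnah5 and Pax8, with F1-HHcy means of 0.354, 0.0833 and 0.553 FPKM, passed the filter through their F1-Control libraries alone, so the filter partly fixed this count. Germ cell and oocyte markers at Pd21 overlapped between the diets, at 1733 to 2574 and 1807 to 2678 FPKM. The part of these cell types in the values of Bax, Bbc3, Pmaip1 and Bcl2 was not tested.

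**Figure D3:**
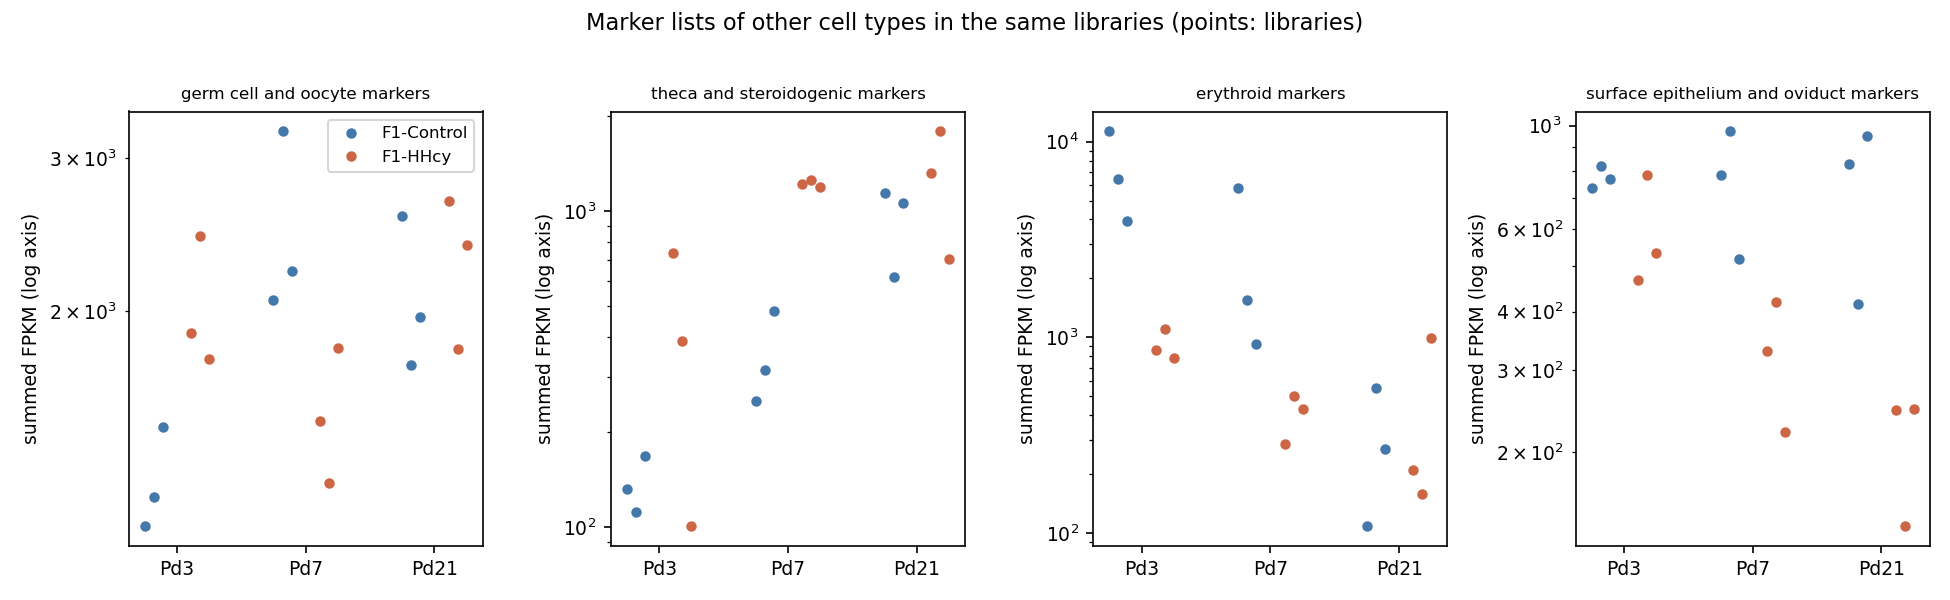
Summed FPKM of 4 marker lists (y axis, log scale) by postnatal day in F1-Control (blue) and F1-HHcy (orange). Each point is a library. Erythroid sums of F1-HHcy lie below those of F1-Control at Pd3 and Pd7, and surface epithelium and oviduct sums lie below at Pd7 and Pd21.

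The second question was how the members changed with age from Pd3 to Pd7, within batch 1. In F1-Control ovaries 2 of 10 members were called, Mcl1 and Bbc3, both lower at Pd7, against 14.5% of the 13336 genes tested, and 3 passed unadjusted (Bax, Bbc3 and Mcl1), against 31.5%. Mcl1 fell from 21.7 ± 2.02 to 15.3 ± 1.23 FPKM (SD, n = 3), a log2 fold change of -0.47 ± 0.13 with an adjusted p of 0.0392. Bbc3 fell from 2.17 ± 0.489 to 1.09 ± 0.174 FPKM, by -0.59 ± 0.16 with an adjusted p of 0.0438. The limma-voom fit also called both genes, with adjusted p-values of 0.0480 and 0.0437, against 11.9% of 18077 genes. Over the 6 limma fits without 1 library, Bbc3 was called in 0, with an adjusted p from 0.0509 to 0.162. Mcl1 was called in 2 and missed in 4, those without F1-Control Pd3 replicate 1, 2 or 3 or Pd7 replicate 3. Bax had 50.6 to 57.0 FPKM at Pd3 and 38.6 to 50.7 FPKM at Pd7, with -0.36 ± 0.14 and an adjusted p of 0.118.

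In F1-HHcy ovaries 0 of 8 members tested were called from Pd3 to Pd7. Here limma called no gene at all (0% of 13257) and limma-voom called none of 18120 genes, while 23.5% passed an unadjusted p under 0.05, 2 members among them (Bcl2 and Mcl1). Mcl1 changed by -0.60, by -0.36 without F1-HHcy Pd3 replicate 3 and by -0.77 without F1-HHcy Pd7 replicate 3. Bcl2 had 4.21 to 4.80 FPKM at Pd3 and 5.50 to 6.16 FPKM at Pd7, without overlap, with 0.29 ± 0.11 and an adjusted p of 0.182. Pmaip1 had 0.509 to 1.51 FPKM at Pd3 and 0.146 to 0.398 FPKM at Pd7, without overlap, and Bbc3 had 0.634 to 1.35 and 0.371 to 0.600 FPKM. These comparisons share their libraries with those of the diets.

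Values at Pd21 are given beside the earlier days with no test, since batch 2 held no other day. Bak1 had means of 16.4, 18.2 and 31.5 FPKM in F1-Control and 17.1, 16.1 and 27.9 FPKM in F1-HHcy at Pd3, Pd7 and Pd21. Bcl2l1 had 8.75, 7.46 and 16.9 FPKM in F1-Control and 8.48, 9.11 and 14.4 FPKM in F1-HHcy. For Bak1 all Pd21 libraries lay above all earlier ones, and for Bcl2l1 all but the F1-HHcy library at 11.5 FPKM did, as an earlier one reached 11.8 FPKM. Pmaip1 went the other way in F1-Control, from 1.87 and 1.71 FPKM to 0.373 FPKM.

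The balance of the roles was described by ratios, with no test. Bax over Bcl2 was 10.7 ± 1.30 in F1-Control and 8.70 ± 0.989 in F1-HHcy at Pd3 (SD, n = 3), ranges that overlapped. The overlap rested on F1-HHcy Pd3 replicate 3, at 9.79 beside 8.45 and 7.86, where the lowest F1-Control library had 9.52. The log2 difference between the diets was -0.30 with that library and -0.39 without it. At Pd7 Bax over Bcl2 was 9.94 ± 2.48 and 6.16 ± 0.745, and the lowest F1-Control library (8.39) lay above the highest F1-HHcy library (6.71). The log2 difference at Pd7 was -0.67, and -0.47 without F1-Control Pd7 replicate 2, the library with the highest ratio of that day (12.8). At Pd21 Bax over Bcl2 was 11.6 ± 4.56 and 11.9 ± 5.46. The sum of Bax and Bak1 over the sum of Bcl2, Bcl2l1 and Mcl1 was 2.01 ± 0.144 and 1.64 ± 0.242 at Pd3, without overlap, and was lowest in F1-HHcy Pd3 replicate 3, while the other 2 F1-HHcy libraries were both at 1.78. The log2 difference of this ratio between the diets at Pd3 was -0.30 with that library and -0.17 without it. The ratio was 2.26 ± 0.436 and 1.82 ± 0.150 at Pd7, where the libraries overlapped, and 2.20 and 2.18 at Pd21. Its log2 difference at Pd7 was -0.30, and -0.15 without F1-Control Pd7 replicate 2.

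Within the pro-survival genes, Mcl1 held 56.4% ± 1.54 of their summed FPKM in F1-Control and 48.2% ± 1.18 in F1-HHcy at Pd7, and Bcl2 held 16.0% ± 0.529 and 20.6% ± 2.78. Within the BH3-only genes Pmaip1 held 7.11% to 12.6% in F1-Control and 1.07% to 2.73% in F1-HHcy on that day, and Bbc3 6.45% ± 0.644 and 3.50% ± 0.534. The 10 members together had 126 ± 6.08 and 108 ± 7.81 FPKM at Pd3, and 105 ± 6.93 and 94.4 ± 11.8 FPKM at Pd7.

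**Figure D4:**
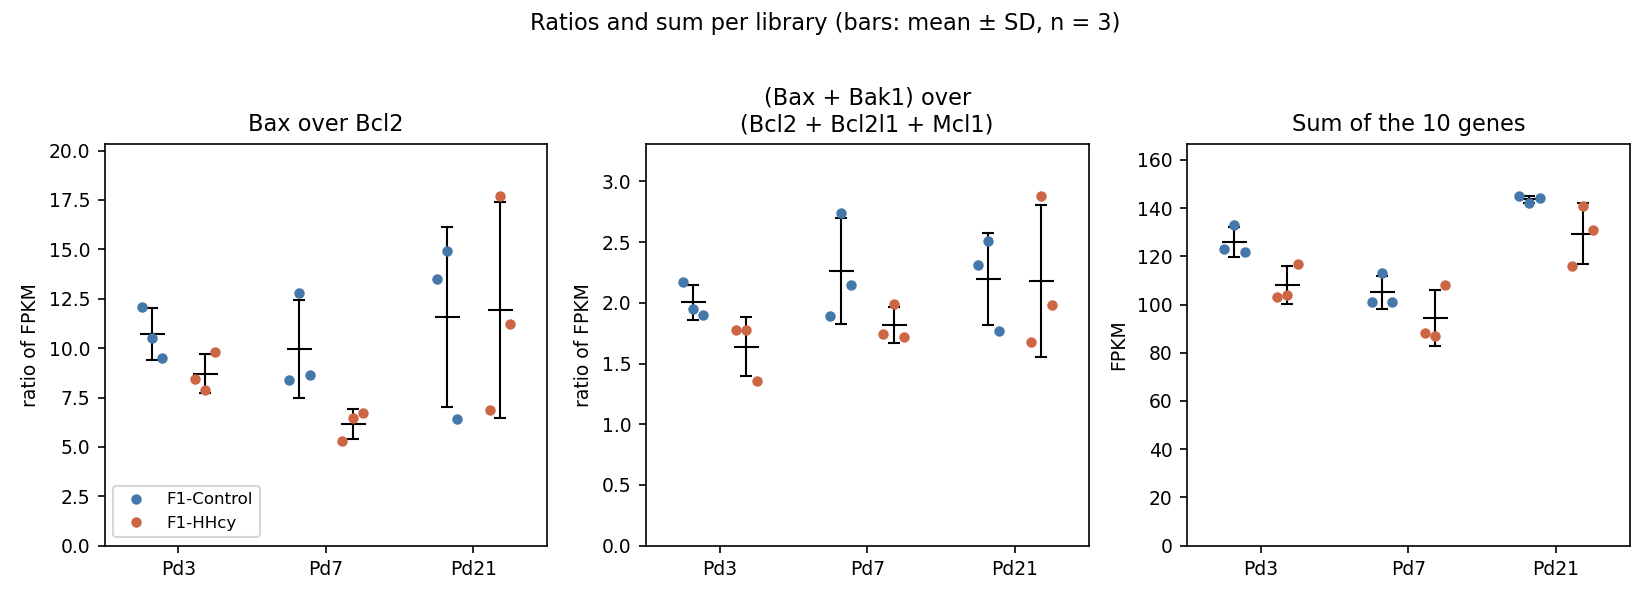
Ratio of Bax to Bcl2, ratio of the effectors to the pro-survival genes, and summed FPKM of the 10 genes (y axes, linear from 0) by postnatal day in F1-Control (blue) and F1-HHcy (orange). Points are libraries and bars are the mean ± SD of 3. The Bax to Bcl2 ratio at Pd7 is at or above 8.39 in F1-Control and at or below 6.71 in F1-HHcy.

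Over the 18 libraries some members followed each other. Bbc3 with Pmaip1 and Bak1 with Bcl2l1 had the highest Pearson r of log2(FPKM + 1), 0.85 for each pair, then Bax with Bid (0.67) and Bbc3 with Bmf (0.65), and Bcl2l1 with Pmaip1 had the lowest, -0.55. These values describe libraries that share day, batch and diet. The genes most like each member, among 14607, were Cyc1 for Bax (0.952), Surf4 for Bak1 (0.963), Mtcl1 for Bcl2 (0.846), Tsc22d4 for Bcl2l1 (0.950), Rrn3 for Mcl1 (0.911), Dmrta2 for Bbc3 (0.939), Stx11 for Pmaip1 (0.958), Sppl2a for Bcl2l11 (0.785), Mfsd1 for Bid (0.938) and Enpp3 for Bmf (0.859). For Bbc3 the next were Slc27a2 (0.936) and Fgf9 (0.934), and for Pmaip1 Rab37 (0.944) and Oaz2 (0.934).

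Genes around the family in the same pathway were counted from lists, to be read against the share of all genes called at Pd3, Pd7 and Pd21 (3.07%, 11.9% and 2.23%) and the share with an unadjusted p under 0.05 (22.4%, 31.5% and 6.85%). Of 15 other Bcl2 family genes 0 were called by limma for the diet on any day, with 9, 8 and 9 tested at Pd3, Pd7 and Pd21, and 2, 4 and 0 with an unadjusted p under 0.05. Of 10 caspase and apoptosome genes 0 were called on any day, and 3, 2 and 0 passed unadjusted. Of 9 caspase inhibitors and proteins released from mitochondria, 1 rose and 1 fell at Pd7. Birc5 (survivin), also a protein of dividing cells, fell from 48.4 ± 8.42 to 28.3 ± 1.46 FPKM (log2 fold change -0.74 ± 0.15, adjusted p = 0.0153), and Birc3, an inhibitor of apoptosis, rose from 9.61 ± 1.04 to 14.6 ± 0.673 FPKM (0.56 ± 0.14, adjusted p = 0.0321).

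Among 9 genes of the p53 family and its regulators, 1 was called on any day. Trp63, whose product guards oocyte DNA, fell at Pd7 from 5.12 ± 1.34 to 2.48 ± 0.333 FPKM (-0.80 ± 0.19, adjusted p = 0.0246 in limma). Among 12 tested p53 target genes outside the Bcl2 family, 1 fell at Pd3, 2 fell and 1 rose at Pd7 and 0 were called at Pd21. Aen, a nuclease induced by p53, fell from 24.2 ± 0.147 to 10.9 ± 3.14 FPKM at Pd3 (-1.11 ± 0.18, adjusted p = 0.0287) and from 13.8 ± 3.23 to 5.49 ± 1.10 FPKM at Pd7 (-1.18 ± 0.19, adjusted p = 0.00678). At Pd7 Cdkn1a (p21), an inhibitor of the cell cycle, fell from 4.93 ± 1.39 to 2.20 ± 0.674 FPKM (-0.88 ± 0.22, adjusted p = 0.0343), and Trp53inp1, a stress protein, rose from 12.5 ± 2.81 to 19.4 ± 1.32 FPKM (0.61 ± 0.17, adjusted p = 0.0461).

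The median log2 fold change of these p53 targets was -0.27, -0.03 and -0.15 on the 3 days. At Pd21, 12 of 12 had a fitted change below 0, as did 52.5% of all genes tested, and 11 of the 12 missed an unadjusted p under 0.05. Of 10 kinases and transcription factors that act on BH3-only genes, 1 was called, Foxo1, which rose at Pd7 from 8.05 to 17.0 FPKM in the F1-Control libraries to 24.0 to 55.9 FPKM in the F1-HHcy libraries (1.50 ± 0.34, adjusted p = 0.0219).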

How the data were processed

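Poly-A RNA of whole ovaries was sequenced by the authors from stranded libraries. The submitters' processing notes name FastQC 0.11.9, Trimmomatic 0.39, STAR 2.7.9a, featureCounts 2.0.1, Subread, DESeq2 1.36.0 and the build GRCm38/mm10, without saying what each was used for. The authors deposited 1 FPKM value per gene symbol and library, without naming the unit. It was read as FPKM because 1 length per gene and 1 factor per library turned the values into whole fragment numbers (within 0.02, or 0.05 for genes tried again) for 100% of 27294 genes above 0 in at least 3 libraries. Recovered totals were 33630547 to 39399215 fragments per library, so low levels are limited by counting error as well as by the 3 libraries per group. No pair of replicates agreed within sampling noise (lowest mean chi-square per gene 11.4, where 1 is expected from sampling).

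Groups came from the labels. Comparisons used limma 3.58.1 in R 4.3.3 with eBayes trend, on log2(FPKM + 1), for genes that reached 1 FPKM in 3 or more of the libraries fitted, with Benjamini-Hochberg adjustment over all genes tested. The interaction of diet and day and the average over days used group means. The named genes are all 10 members, the called genes of each pathway list (at most 4 per list and day by smallest p) and the most alike genes by Pearson r. Fos, Jun and Foxj1 were named after their values were seen. Alternatives were a pseudocount of 0.1, no filter, median-ratio scaling, leaving out mitochondrial and hemoglobin genes, calls by unadjusted p (below 0.05) and a log2 fold change beyond 0.58, the replicate number as a block, all 18 libraries in 1 model, and each library left out in turn. The limma-voom fit on recovered fragments (at least 10 in at least 3 libraries) and the average over days were added after seeing the data. In simulated data for the diet at Pd3, Pd7 and Pd21, with 200 of 13313, 13244 and 13381 genes changed by 1 on the log2 scale, 113, 101 and 91 of them were called, with 8, 6 and 5 other genes. The changed genes were drawn only from genes with a mean above 1 FPKM, and every gene was given the same spread rather than its own. These counts therefore do not describe Bbc3 and Pmaip1 at Pd7 and Pd21, or genes whose replicates spread otherwise. The members and lists were chosen with earlier results of these data known.

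Promoter sequences are from RefSeq (GRCm38.p6), and overlaps of exons from GENCODE M21. Windows of 9 members were used, since chromosome 18, which holds Pmaip1, was left out for the members. Tables and figures were made in Python 3.11.15 with numpy 2.4.6, pandas 2.3.3 and matplotlib 3.10.9.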

Additional observations from a re-analysis of the deposited data

Results flagged for a closer look

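The diet effect of Pmaip1 passed a test of its difference between days, at the edge of the threshold. The fitted effect was 1.20 higher at Pd21 than at Pd7 on the log2(FPKM + 1) scale, with an adjusted p of 0.0492 in limma over 14607 genes. It was -1.11 at Pd7 and 0.09 at Pd21. The libraries of the 2 days came from different batches, each diet effect lay within a batch, and the values at Pd21 rested on 15 to 77 fragments per library. The adjusted p was 0.108 with limma-voom, 0.0548 with a pseudocount of 0.1, 0.0914 without the filter, 0.0739 without mitochondrial and hemoglobin genes, 0.0693 with the replicate block and 0.0407 with median-ratio scaling, and it ran from 0.0220 to 0.125 over 18 fits without 1 library, 13 of which missed the threshold.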

How the results depend on the processing

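The count of members called for the diet at Pd3 was 0 and became 1 (Bbc3) by an unadjusted p with a log2 fold change over 0.58 and in 1 model of all 18 libraries, and ran from 0 to 2 (Bax and Bbc3, without F1-HHcy Pd3 replicate 3) over the fits without 1 library. At Pd7 it was 1 and became 0 without the filter and 2 with limma-voom (Bbc3 and Pmaip1), where 9.09% of 18121 genes were called. From Pd3 to Pd7 in F1-Control it was 2 and became 1 by the unadjusted criterion and in 1 model of all 18 libraries (Bbc3 in either). It became 0 without the filter and with median-ratio scaling. Without 1 library it ran from 0 to 2, with Bbc3 called in 0 of 6 fits. In F1-HHcy it went from 0 to 1 (Mcl1) by the unadjusted criterion. For the diet effect of Pd21 minus Pd7 it was 1 and became 0 with a pseudocount of 0.1, without the filter, without mitochondrial and hemoglobin genes and with limma-voom, and ran from 0 to 1 without 1 library. For the average over days it was 3 and became 0 by the unadjusted criterion with its fold change limit, 2 (Bbc3 and Pmaip1) without the filter, with median-ratio scaling and with limma-voom (where 11.4% of 20301 genes were called), and ran from 2 to 3 without 1 library. The cause of these changes was not tested beyond what each alternative leaves out.

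The labels do not say whether replicate numbers mark a shared litter or day of work, and same-numbered libraries did not deviate together (r at Pd3 of -0.119, -0.127 and -0.181, at Pd7 of 0.046, -0.101 and 0.085, then -0.166, -0.135 and -0.314 at Pd21). With the replicate block, the count for Pd21 minus Pd7 went from 1 to 0 (Pmaip1, adjusted p = 0.0693), and the other counts did not change.

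Some small log2 fold changes turned their sign. With median-ratio scaling, Mcl1 became 0.01 at Pd3 and 0.03 at Pd21, Bcl2l11 became 0.03 from Pd3 to Pd7 in F1-Control, and Bcl2l1 became 0.01 in the average. Without mitochondrial and hemoglobin genes, which moved the median of all genes by 0.11 for the diet at Pd7, -0.11 from Pd3 to Pd7 in F1-Control and -0.12 for Pd21 minus Pd7, Bid became -0.01 at Pd21, Bmf -0.09 from Pd3 to Pd7 in F1-Control and Bcl2l1 0.01 in the average. Over the fits without 1 library, the range at Pd3 was -0.02 to 0.11 for Bak1, -0.10 to 0.05 for Bcl2l1, -0.25 to 0.13 for Mcl1, -0.01 to 0.06 for Bcl2l11 and -0.20 to 0.16 for Bmf. At Pd7 it was -0.06 to 0.13 for Bcl2l11 and -0.37 to 0.02 for Bmf. At Pd21 it was -0.29 to 0.02 for Bax, -0.29 to 0.08 for Bcl2, -0.11 to 0.05 for Mcl1, -0.04 to 0.11 for Bcl2l11 and -0.11 to 0.12 for Bid. From Pd3 to Pd7 in F1-Control it was -0.24 to 0.08 for Pmaip1, -0.09 to 0.10 for Bcl2l11 and -0.04 to 0.12 for Bmf, and in F1-HHcy -0.23 to 0.02 for Bak1, -0.11 to 0.19 for Bcl2l1 and -0.36 to 0.10 for Bmf. In the average it was -0.02 to 0.10 for Bcl2 and -0.07 to 0.04 for Bcl2l1. In these results the main value lay within 1 or 2 SE of 0. Depth limits Bbc3 and Pmaip1, whose libraries held as few as 33 and 13 fragments.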
